A study of Mus musculus with 2 samples.

Results

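The IL-12 family is a set of cytokines, each built of 2 different chains, and of receptors that share chains between them. The 10 genes described here were chosen by name, as the subunits of IL-12, IL-23, IL-27 and IL-35 and the chains of their receptors. The cytokine subunits are Il12a, Il12b, Il23a, Il27 and Ebi3, and the receptor chains are Il12rb1, Il12rb2, Il23r, Il27ra and Il6st. They are 10 of 34960 gene names on the arrays, and 12 of 55676 probes carried their names. They were measured in total RNA of sorted regulatory T (Treg) cells, the CD4 T cells that restrain immune responses, from 5-week-old mice of the genotype labelled Nr4a-TKO and from wild-type mice of the same age. Each genotype had 1 array, so every difference is between 2 arrays and has no replicate check. No p-value is given for that reason. The labels do not say which alleles of Nr4a1, Nr4a2 and Nr4a3, 3 related nuclear receptors, were altered, how many mice were pooled or by which markers the cells were sorted.

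In this family 1 subunit can serve several cytokines. IL-12 is Il12a with Il12b, IL-23 is Il23a with Il12b, IL-27 is Il27 with Ebi3, and IL-35, a cytokine that Treg cells are reported to secrete, is Il12a with Ebi3. IL-12 drives Th1 cells, IL-23 maintains Th17 cells, and IL-27 and IL-35 are mostly known for restraining responses. IL-12 and IL-23 are made chiefly by dendritic cells and macrophages. On the receiving side Il12rb1 pairs with Il12rb2 for IL-12 and with Il23r for IL-23, Il27ra pairs with Il6st for IL-27, and Il12rb2 and Il6st have been reported as chains of the IL-35 receptor. The receptors signal through JAK kinases and STAT transcription factors.

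The values come from probes of 60 bases. The sequences of 3 of them are shown, since they report the 2 chains of the IL-12 receptor, which differed in opposite directions, and a cytokine subunit that was nearly level. They are written 5′ to 3′ as deposited. The first lies on chromosome 8 at 73343240 to 73343299 on the + strand and begins at base 1800 of its transcript. The second lies on chromosome 6 at 67242256 to 67242315 on the - strand and begins at base 2643. The third lies on chromosome 7 at 133736137 to 133736196 on the - strand and begins at base 196. All probe coordinates are on build mm9. The scanner files name the transcript of each probe but not where its coding part ends.
Il12rb1: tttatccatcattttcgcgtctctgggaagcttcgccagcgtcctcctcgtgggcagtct
Il12rb2: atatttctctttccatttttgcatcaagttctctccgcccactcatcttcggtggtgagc
Il27: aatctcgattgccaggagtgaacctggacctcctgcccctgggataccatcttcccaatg

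The arrays were checked against their labels first. Nr4a3 was 7.04-fold lower on the array labelled Nr4a-TKO than on the wild-type array, Nr4a1 differed by 0.06 on the log2 scale and Nr4a2 was 2.54-fold higher. Every direction below is therefore drawn from the label. All 9 markers fixed for T and Treg cells were well above background on both arrays, but Foxp3, whose product is the master regulator of the Treg lineage, was 17.2-fold lower in Nr4a-TKO. Ikzf2 and Ctla4 were also lower there, by 3.07-fold and 2.29-fold, and the median of the 9 was -0.52. Their summed scaled signal was 478 in Nr4a-TKO and 675 in wild-type, in units of each array's 75th percentile. Sums here and below add different probes, and in later lists also probes not well above background. A gene's share of a sum is therefore no measure of its share of RNA or of cells. A lower signal may reflect fewer cells of a type or less RNA per cell, which cannot be told apart in such samples. All 7 probes of Xist, an RNA of female cells, were brighter in Nr4a-TKO, and all 5 probes of Y-linked genes were dimmer. Genotype and these sex-linked signals cannot be told apart with 1 array each, and the part of the Foxp3 difference in the results below was not tested.

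Of the 10 family genes 6 were measured, which means that the scanner software called the gene's brightest probe well above background in each genotype. Among these, Il12rb1 and Ebi3 were at least 2-fold higher in Nr4a-TKO, Il6st and Il12rb2 were at least 2-fold lower, and Il27 and Il27ra lay between. Among all 23493 measured gene names, the share past 2-fold was 3.15% in the higher direction, 3.06% in the lower and 6.22% in either. At 1.5-fold the members numbered the same 2 higher and 2 lower, beside 8.36% and 7.36% of all measured genes, or 15.7% in either direction. At 3-fold there were 0 in each direction, beside 1.23% higher, 1.2% lower and 2.43% in either. The median log2 difference, Nr4a-TKO minus wild-type, was -0.14 over the 6 members and 0.08 over all measured genes. The other 4 members, Il12a, Il12b, Il23a and Il23r, missed that call in both genotypes. Signals are given below as scanner intensity and, after log2 and less the array's 75th percentile, as scaled log2 signals, which set 1 probe against itself on the other array and not against other probes.

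**Figure D1:**
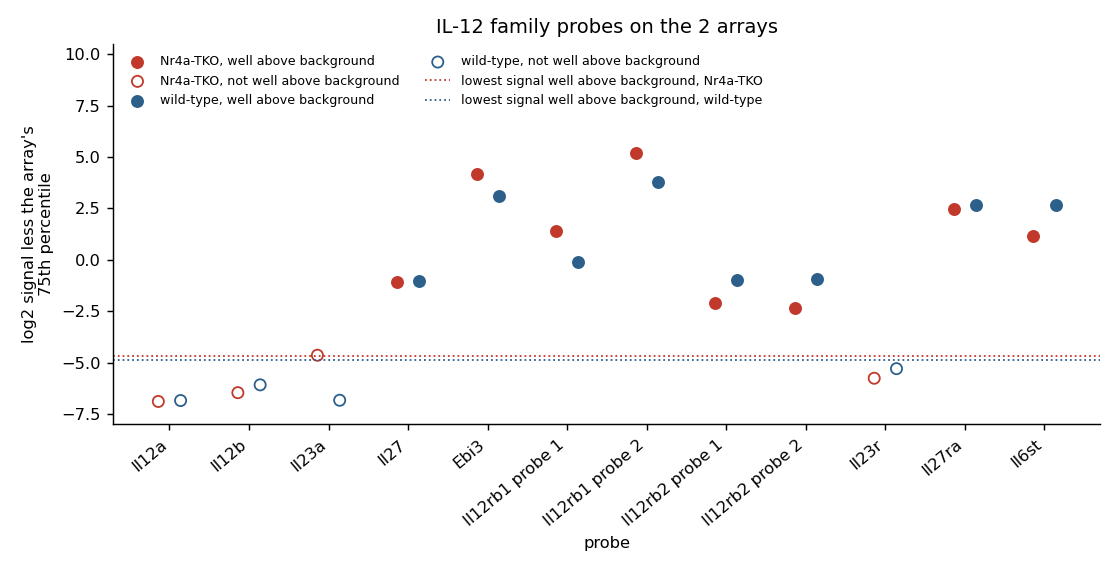
Scaled log2 signal (log2 signal less the array's 75th percentile) of each of the 12 IL-12 family probes, with Nr4a-TKO in red at the left and wild-type in blue at the right of each pair. Filled points were well above background, open points were not, and dotted lines mark the lowest signal called well above background on each array. Both probes of Il12rb1 were higher in Nr4a-TKO, both probes of Il12rb2 were lower, and the 4 genes with open points lay below the dotted lines or, for Il23a in Nr4a-TKO, at them.

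Among the receptor chains, Il12rb1, the chain shared by the IL-12 and IL-23 receptors, was the member with the largest difference in the higher direction. Its brighter probe, on chromosome 8 at 73345261 to 73345320, had an intensity of 27962 in Nr4a-TKO and 11569 in wild-type. The scaled log2 signals were 5.22 in Nr4a-TKO and 3.80 in wild-type, a difference of 1.42, or 2.67-fold higher in Nr4a-TKO. The scanner's error model gave an error of 0.20 for this log2 difference. The dimmer probe, whose sequence is shown above, had an intensity of 1974 in Nr4a-TKO and 773 in wild-type, which was 2.82-fold higher in Nr4a-TKO after scaling. The log2 differences of the probes, which lie on separate stretches of the transcript, were closer to each other than the scanner error.

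Il12rb2, which completes the IL-12 receptor and carries its STAT4-recruiting tail, was lower. The probe shown above had an intensity of 174 in Nr4a-TKO and 416 in wild-type. The log2 difference of -1.11 had a scanner error of 0.21 and corresponds to 2.16-fold lower in Nr4a-TKO. A second probe, further along the transcript at 67242012 to 67242071, had an intensity of 148 in Nr4a-TKO and 433 in wild-type, or 2.66-fold lower in Nr4a-TKO after scaling. With normexp background correction, which adds an offset to the signals, the first probe was at -0.83 and so under 2-fold. The log2 difference of Il12rb1 exceeded that of Il12rb2 by 2.53 with a scanner error of 0.29, so the transcripts of the 2 chains differed in opposite directions. This gap does not depend on the constant taken from each array, and it lay between 2.30 and 2.72 over all settings run.

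Il6st encodes the signalling chain known as gp130, which IL-27 shares with IL-6 and its relatives. It had the largest difference among the members in the lower direction. Its probe, on chromosome 13 at 113296586 to 113296645, had an intensity of 1678 in Nr4a-TKO and 5231 in wild-type. The scaled log2 signals were 1.16 in Nr4a-TKO and 2.65 in wild-type, a difference of -1.50 with a scanner error of 0.20. Il6st was thus 2.82-fold lower in Nr4a-TKO, and between -1.77 and -1.50 in every setting run.

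Il27ra, the ligand-specific chain of the IL-27 receptor, had a signal close to that of wild-type. Its probe, on chromosome 8 at 86554885 to 86554944, had an intensity of 4141 in Nr4a-TKO and 5314 in wild-type. The log2 difference of -0.22 had a scanner error of 0.20 and a size of 1.16-fold. The 2 chains of the IL-27 receptor therefore differed unequally, by a gap of 1.28 on the log2 scale with a scanner error of 0.29. The 2 chains reported for the IL-35 receptor, Il12rb2 and Il6st, were both lower in Nr4a-TKO, and the gap between them was 0.39 with a scanner error of 0.29.

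Il23r, the chain that makes a receptor specific for IL-23, was not well above background in Nr4a-TKO or in wild-type. Its probe, on chromosome 6 at 67372966 to 67373025, had an intensity of 13.9 in Nr4a-TKO and 21.3 in wild-type, and no fold is given. It lies 131 kb from the Il12rb2 probe, so the specific chains of the IL-12 and IL-23 receptors are neighbours in the genome. In Nr4a-TKO and in wild-type alike, of the chains that pair with Il12rb1 only Il12rb2 gave a signal well above background.

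**Figure D2:**
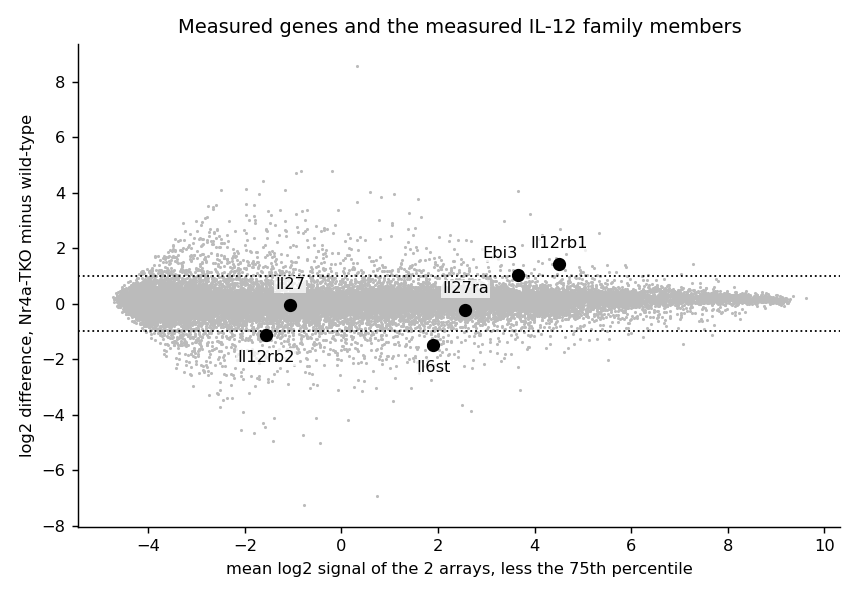
Log2 difference, Nr4a-TKO minus wild-type, against mean scaled log2 signal for the 23493 measured gene names in grey, with the 6 measured IL-12 family genes in black and dotted lines at 2-fold. Il12rb1 and Ebi3 lie above the upper line, Il6st and Il12rb2 below the lower line, and Il27 and Il27ra between.

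Of the 5 cytokine subunits 2 were measured. Ebi3, the subunit that IL-27 and IL-35 share, was higher in Nr4a-TKO. Its probe, on chromosome 17 at 56096309 to 56096368, had an intensity of 13669 in Nr4a-TKO and 7275 in wild-type, with scaled log2 signals of 4.18 in Nr4a-TKO and 3.13 in wild-type. The difference of 1.05, or 2.08-fold, had a scanner error of 0.20, so its distance from the 2-fold line was smaller than that error. With quantile normalization or with centring on spike-ins or housekeeping genes it came under 2-fold, and it was between 0.78 and 1.08 over all settings.

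Il27, the partner of Ebi3 in IL-27, was nearly level. The probe shown above had an intensity of 354 in Nr4a-TKO and 407 in wild-type, and the log2 difference was -0.06 with a scanner error of 0.21. The log2 difference of Ebi3 exceeded that of Il27 by 1.11, with a scanner error of 0.29. The 2 subunits of IL-27 were both well above background in each genotype, but only the transcript of Ebi3 was higher by more than the scanner error.

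Il12a, which pairs with Ebi3 in IL-35 and with Il12b in IL-12, was not well above background in Nr4a-TKO or in wild-type. Its spot had a raw mean of 79.8 in Nr4a-TKO, against a subtracted background of 85.1 there, and 94.9 in wild-type, against 87.0 there. The Il12a probe, on chromosome 3 at 68502346 to 68502405, holds 16.7% G and C, where the median over all probes is 43.3%. Only 50 of 55676 probes have as little or less. Of those 50, 5 were well above background in Nr4a-TKO and 5 in wild-type, or 10% on each array, against 63.9% of the remaining probes in Nr4a-TKO and 66.0% in wild-type. The part of base content in the dim Il12a signal was not tested.

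Il12b, the subunit common to IL-12 and IL-23, was the only member printed several times on each array, with 10 spots of a probe on chromosome 11 at 44227121 to 44227180. None of the 10 spots in Nr4a-TKO and none of the 9 usable spots in wild-type was well above background. Raw means ran from 89.2 through a median of 92.8 to 99.3 in Nr4a-TKO and from 88.1 through 104 to 117 in wild-type, and the ranges overlapped. The background subtracted from these spots was 84.5 to 85.9 in Nr4a-TKO and 86.7 to 90.1 in wild-type. The tenth wild-type spot, at 150, was called well above background but was marked by the scanner as an outlier and left out. The repeated spots place Il12b near background on each array.

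Il23a, the specific subunit of IL-23, was near the detection limit. Its spot, on chromosome 10 at 127733766 to 127733825, had a raw mean of 113 in Nr4a-TKO and 87.2 in wild-type, against subtracted backgrounds of 85.0 in Nr4a-TKO and 86.8 in wild-type. The scaled signal in Nr4a-TKO, -4.64, lay just over the lowest signal called well above background on that array, -4.68, yet the spot itself was not called so. In wild-type the spot was so dim that the scanner wrote a surrogate value in its place. No fold is given, since neither side was measured.

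**Figure D3:**
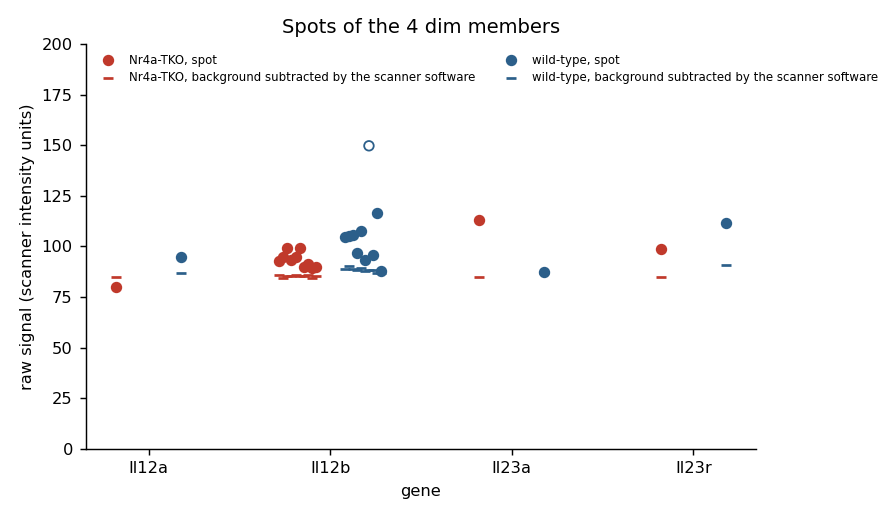
Raw mean signal of each spot of the 4 members that were not well above background (circles) and the background that the scanner software subtracted at that spot (dashes), in scanner intensity units, with Nr4a-TKO in red at the left and wild-type in blue at the right. The open circle is the Il12b spot left out as an outlier, and the usable spots lie between 79.8 and 117.

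Other cell types that make these cytokines were looked for through their markers. Of 13 macrophage and dendritic cell markers on the array, 6 were measured on both arrays with a median log2 difference of 0.05 and 0 past 2-fold. The 6 were Csf1r, Fcgr1, Adgre1, Zbtb46, Flt3 and Siglech. Itgax, Cd14, Clec9a, Cd209a and Mrc1 were not well above background on either, and Lyz2 and Xcr1 were so in wild-type alone. The summed scaled signal of the whole list was 138 in Nr4a-TKO and 140 in wild-type, of which Siglech, a marker of plasmacytoid dendritic cells, gave 136 in Nr4a-TKO and 139 in wild-type. That Siglech signal is of its brightest probe, and only 1 of its 3 probes was well above background on both arrays. The other 12 genes together gave 1.66 in Nr4a-TKO and 1.52 in wild-type. B cell markers were measured for 6 of 9 genes, with 1 at least 2-fold higher, a median of 0.08 and a sum of 2.06 in Nr4a-TKO and 1.49 in wild-type, while Ms4a1 and Ebf1 were among those that missed the call in both genotypes. CD8 T and NK cell markers, of interest because NK cells carry Il12rb2, were measured for 6 of 9 genes with a median of -0.00. Of these 2 were at least 2-fold higher and 0 lower, the sum was 2.46 in Nr4a-TKO and 2.50 in wild-type, and Klrb1c and Klrk1 were not well above background on either. The 2 higher genes were Gzma, at 3.44-fold, and Eomes, at 2.47-fold. Another gene of that list, Klrd1, was well above background in wild-type alone and at least 5.97-fold lower in Nr4a-TKO, a bound taken against the lowest signal called well above background there. Plasma cell markers were measured for 4 of 6 genes with 1 at least 2-fold higher and a median of -0.19, and their sum was 112 in Nr4a-TKO and 128 in wild-type. Irf4 and Xbp1, which T cells also express, made up nearly all of it, and the other 4 genes together gave 0.328 in Nr4a-TKO and 0.251 in wild-type. The higher gene was Sdc1, at 3.17-fold. Jchain and Tnfrsf17 missed the call in both genotypes. The part of any of these cells in the Il12rb2 or Ebi3 values was not tested.

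All 8 listed kinases, STAT factors and SOCS inhibitors that carry or restrain the receptors' signal were measured. Of these, 0 were past 2-fold in either direction, beside 6.22% of all measured genes, and 2 of 8 were past 1.5-fold, both higher, beside 15.7% in either direction. With so few genes neither count sets the list apart. Their median log2 difference was 0.25, or -0.02 with centring on spike-ins. Stat3, which IL-23 and IL-27 activate, was at 0.72 and Socs3, a feedback inhibitor that binds gp130, at 0.59. Jak2 was at 0.38 and Jak1, which binds gp130, at -0.38. Stat4, the factor that IL-12 activates, was at 0.18.

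Genes known to respond to IL-12 or IL-27 in T cells had no common direction. Of 12 listed genes 9 were measured, and their median was 0.01, which turned to -0.26 with centring on spike-ins. None of the 9 was 2-fold higher, beside 3.15% of all measured genes, and 1 was past 2-fold in the other direction, beside 3.06%. With so few genes neither count sets the list apart. The lower gene was Ifng, the main Th1 cytokine, with scaled log2 signals of -2.51 in Nr4a-TKO and -0.54 in wild-type, or 3.91-fold lower. Furin, a protease induced through STAT4, was at 0.96 on the log2 scale, Prdm1 at -0.72, and Maf, a factor that IL-27 induces, at 0.57. Tbx21, the Th1 transcription factor gene, was at 0.38.

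Genes linked to IL-23 and the Th17 program had the highest median of the 4 pathway lists, 1.40 over 8 measured genes of 9. Of these, 6 passed 2-fold in the higher direction and 0 in the lower, beside 3.15% and 3.06% of all measured genes. The list was chosen with earlier results of these data known, so these counts are not a test of it. Il21 had scaled log2 signals of 3.05 in Nr4a-TKO and -0.89 in wild-type, or 15.3-fold higher in Nr4a-TKO. Also higher there were Il1r1, a receptor for IL-1, by 6.31-fold, and Il17f, a Th17 cytokine gene, by 2.96-fold. Against these, Il17a was at least 14.6-fold lower by its bound, since it was well above background only in wild-type. Il23r, the receptor chain specific for IL-23, gave no signal well above background in either genotype.

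Other cytokines and receptors of the gp130 class had a median of -0.14 over 9 measured genes of 15, or 0.18 without the filter on dim probes. Of the 9, 1 gene was past 2-fold in each direction, beside 3.15% higher and 3.06% lower of all measured genes. With so few genes these counts do not set the list apart. Cntfr was 3.43-fold higher in Nr4a-TKO and Clcf1, a cytokine gene whose product can act through the Cntfr protein, 2.04-fold lower. Lif was at -0.70 and Il11ra1 at -0.51. Il6ra, which brings IL-6 to gp130, was at -0.20, a smaller difference than the -1.50 of Il6st. Il6, Osmr and Il31 missed the call in both genotypes.

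**Figure D4:**
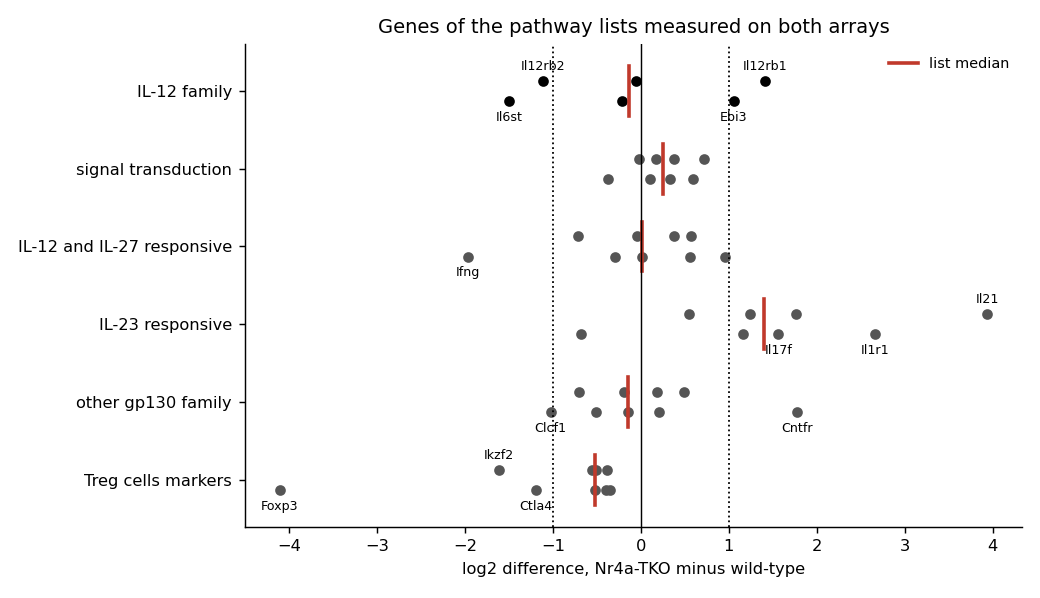
Log2 difference, Nr4a-TKO minus wild-type, of each gene measured on both arrays (points) in the IL-12 family, 4 pathway lists and the T and Treg cell markers, with red lines at list medians, dotted lines at 2-fold and names beside genes past 2-fold that the text describes. The IL-23 list has its median at 1.40, the Treg markers at -0.52, and the IL-12 family spreads to both sides of 0.

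Promoter letters were read from RefSeq for 6 of the 10 genes, in 7 windows of 250 bases before to 50 after a start site of a gene, on GRCm38.p6. The NBRE, the site that Nr4a proteins bind as monomers, was searched as AAAGGTCA on both strands. It was in 0 of the 7 windows and in 1.51% of all 32851 windows, which says only that these letters are not there. The STAT site TTCNNNGAA, which reads the same on both strands, was in 1 of the 7 windows and in 8.30% of all. With so few windows this count does not set the family apart. The window with the STAT match is that of Il12rb2. Its 145 bases that lie outside the annotated gene, at chr6:67376294-67376438 on the - strand, are shown since they hold the match. This match begins 123 bases before the start site of the window, and the annotated gene reaches further upstream than that site. The match is in capitals, and it is a description of letters, not a binding site or a cause.
Il12rb2 promoter: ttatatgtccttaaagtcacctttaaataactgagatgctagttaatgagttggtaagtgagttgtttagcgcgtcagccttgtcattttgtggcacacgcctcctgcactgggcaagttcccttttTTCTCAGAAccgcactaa

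The technical spread can be set beside these differences. For 11 of the 12 probes each array held 1 spot, so their error comes from the scanner's model alone. The median of that error was 0.21 for a log2 difference over 33900 probes. Over 262 probes with repeated spots, the spread between spots gave a median SD of 0.08 for a difference. Both measures leave out variation between mice and preparations. The differences of Il12rb1, Ebi3, Il12rb2 and Il6st were larger than either, that of Il27ra was about the size of the scanner error, and that of Il27 was smaller than both.

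**Figure D5:**
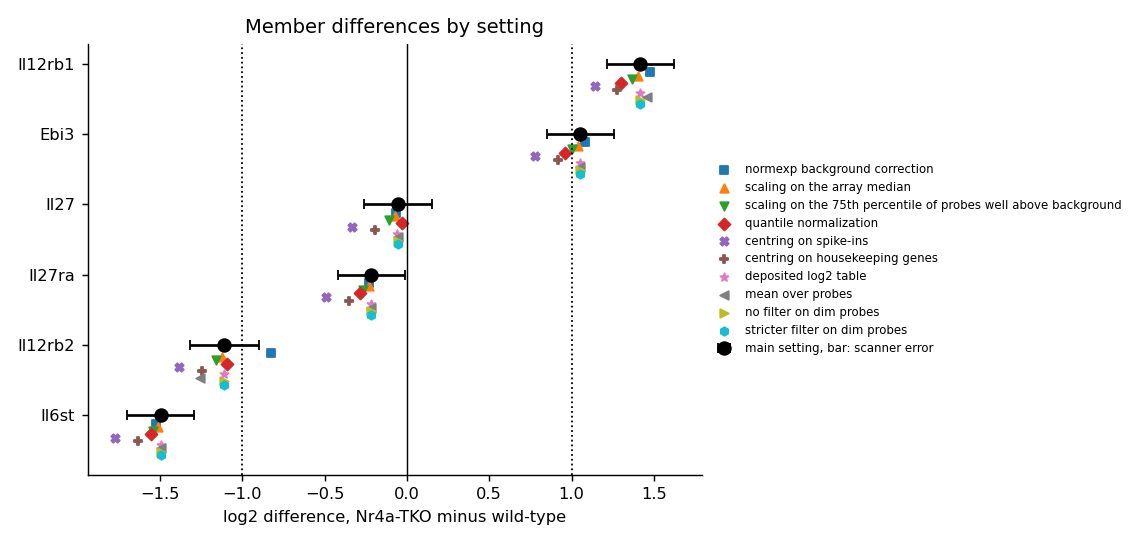
Log2 difference, Nr4a-TKO minus wild-type, of the 6 measured members in the main setting (black, with bars for the scanner error) and in 10 other settings (symbols), with dotted lines at 2-fold. Il12rb1 and Il6st lie past 2-fold in every setting shown, and Ebi3 and Il12rb2 cross the line in some.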

How the data were processed

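Each array's deposited file holds spot intensity, which Agilent Feature Extraction 10.10.1.1 had background-subtracted and detrended within the array, with probes placed on mm9, per the file headers. A deposited table of log2 values matched the log2 scanner signals less 1 constant per array, to an SD of 0.00029 on each. Its medians were -3.53 for Nr4a-TKO and -3.54 for wild-type, and what the constant stands for was not worked out. Control spots and outlier spots (117 in Nr4a-TKO and 156 in wild-type) were left out. Log2 signals of a probe's spots were averaged, and the 75th percentile of all 55676 probes on that array was subtracted. On these arrays 35567 probes (63.9%) in Nr4a-TKO and 36732 (66.0%) in wild-type were well above background, and 0 spots were saturated. Names came from RefSeq (GRCm38.p6) accessions for 27508 probes and from the file otherwise. A gene was represented by its brightest probe and counted as measured where that probe passed the well-above-background call in each genotype. A gene with such a signal on 1 array was given a lower bound against the lowest such signal on the other or its own, whichever was higher. The number of arrays limits the precision.

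Groups followed the genotype labels. Members and lists were chosen with earlier results of these data known. All members were named, with up to 4 leading genes of each pathway list. Some list members are not reported here by name. Tbx21, Stat4, Il6ra, Klrd1, Gzma, Eomes, Siglech, Irf4, Xbp1 and Sdc1 were named after their values were seen, as were the sex-linked genes. The measured markers of macrophages, dendritic cells, B cells, and CD8 T and NK cells were also named then. Alternatives were normexp (offset 50), other scalings, the deposited table, probe means, other filters, and thresholds of 1.5-fold and 3-fold. The counting step was tested on simulated data. The work was done in R 4.3.3 (limma 3.58.1) and Python 3.11.15 (numpy 2.4.6, pandas 2.3.3, matplotlib 3.10.9).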

Additional observations from a re-analysis of the deposited data

How the results depend on the processing

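The 6 measured members kept their sign in all 10 settings run for them. Of the counts, 2 genes at least 2-fold higher became 1 with quantile normalization, with centring on spike-ins and with centring on housekeeping genes, Ebi3 being the gene that dropped out each time. The 2 genes at least 2-fold lower became 1 with normexp, where Il12rb2 was at -0.83. At 3-fold both counts were 0, as the largest differences were 2.67-fold higher for Il12rb1 and 2.82-fold lower for Il6st. Without the filter on dim probes 3 genes were at least 2-fold higher, as Il23a was then counted. Spike-in centring put the median of all measured genes lower by a shift of -0.27 and moved every member with it, to -0.33 for Il27, 0.78 for Ebi3, 1.14 for Il12rb1, -1.38 for Il12rb2, -0.49 for Il27ra and -1.77 for Il6st. The same centring put the list medians at -0.023 for signal transduction, -0.26 for IL-12 and IL-27 responsive genes, 1.13 for IL-23 responsive genes and -0.42 for other gp130 genes. Without the filter on dim probes the second and the last of these lists were at 0.40 and 0.18. The direction of the first 2 of these lists thus turned with the scaling, and that of the last with the filter. Centring on housekeeping genes (15 of 15 measured, 0 past 2-fold, median 0.14) shifted all genes by -0.14. No paired analysis was possible because each genotype had 1 array, and for the same reason no array could be left out. Low signal over background limits Il12a, Il12b, Il23a and Il23r.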
